A study of Mus musculus with 47 samples.

Results

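The genes described here are the 4 adult globin genes of the mouse that the deposited count matrix lists by symbol, Hba-a1 and Hba-a2 for the alpha chain and Hbb-bs and Hbb-bt for the beta chain. They are 4 of 20796 deposited genes, and all 4 were abundant enough to be tested among 17159 genes. They were picked by name, with earlier results of these data known. Because the copies of each pair are nearly identical and the strains may differ in their globin haplotypes, each gene is given beside an alpha sum (Hba-a1 + Hba-a2), a beta sum (Hbb-bs + Hbb-bt) and a globin sum of all 4.

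The libraries were made from polyadenylated RNA of the gastrocnemius (calf muscle) of wild-type mice of 3 inbred strains: C57BL/6J, the common laboratory strain, CAST/EiJ, derived from wild castaneus mice, and NZO/HlLtJ, a polygenic model of obesity and type 2 diabetes. Males and females of each strain ate a control diet labelled 10% fat + fiber or a diet rich in fat and sugar labelled 44% fat + fiber from 6 weeks of age, and the muscle was taken at 15 weeks. The 47 libraries fell into 12 groups of strain, sex and diet, with 4 libraries in each except CAST/EiJ males on 10% fat, which had 3. Whether each library is a different animal is not stated in the labels, and p-values below therefore reflect the spread between these samples alone. Total expected counts lay between 26.04 M and 84.79 M per library (M, mega), with a median of 40.79 M. Muscle fibre markers such as Myh1, a fast myosin heavy chain, stood at 5153 CPM (counts per M counts of the library, after TMM scaling) in C57BL/6J, 7554 in CAST/EiJ and 5513 in NZO/HlLtJ on 10% fat.

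Adult haemoglobin is a tetramer of alpha and beta chains, each of which holds a heme group that binds oxygen. Its messages are made by red cell precursors in the bone marrow, persist in reticulocytes, and reach a muscle sample with the blood in its vessels. The alpha genes lie in a cluster on chromosome 11 and the beta genes in a cluster on chromosome 7, and both clusters depend on distant enhancers. The symbols Hbb-bs and Hbb-bt belong to the single haplotype carried by C57BL/6J, in which both beta genes encode the same chain; other mouse strains carry other beta haplotypes. In whole muscle, fewer red cells and less globin RNA per cell cannot be told apart.

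The coding sequences show how little separates the copies. They were read from the GENCODE M21 transcripts on GRCm38, the build that the submitters' processing notes name. Over the 426 coding bases of the alpha genes (stop codon left out) Hba-a1 and Hba-a2 differed at 1 base, C381T, counted from 1 at the A of the start codon with the base of Hba-a1 first. Over the 441 coding bases of the beta genes, Hbb-bs and Hbb-bt differed at 1 base, C417T, with the base of Hbb-bs first. Both are base 3 of a codon in exon 3 of 3 and leave the amino acid unchanged. The differing base stands in capitals in these 49-base stretches of exon 3, which hold the only coding base at which the copies can be told apart. They lie at chr11:32284319-32284367 (+ strand), chr11:32297136-32297184 (+), chr7:103826668-103826716 (- strand) and chr7:103812659-103812707 (-), in the order printed.
Hba-a1: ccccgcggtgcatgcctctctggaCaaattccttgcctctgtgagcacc
Hba-a2: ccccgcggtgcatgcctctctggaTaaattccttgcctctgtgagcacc
Hbb-bs: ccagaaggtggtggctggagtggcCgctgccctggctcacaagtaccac
Hbb-bt: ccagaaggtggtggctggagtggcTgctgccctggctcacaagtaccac

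Outside the coding part the 2 models of each pair differ more. The Hba-a1 transcript model has 699 bases and that of Hba-a2 554, and the Hba-a1 model begins 161 bases upstream of the RefSeq start of that gene, against 3 bases for Hba-a2. Hbb-bs has 628 bases and Hbb-bt 703. Of all 100-base windows of the spliced Hba-a1 model, 339 of 600 (56.5%) occur unchanged in Hba-a2, and these are 74.5% of the 455 windows of Hba-a2. For the beta pair, 331 windows are shared, 62.6% of the 529 of Hbb-bs and 54.8% of the 604 of Hbb-bt. The libraries were read as 100-base pairs, so a read that falls in a shared window carries no base of its own that names its copy.

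The genes lie on GRCm38 at chr11:32283511-32284465 (Hba-a1, ENSMUSG00000069919, + strand), chr11:32296489-32297298 (Hba-a2, ENSMUSG00000069917, +), chr7:103826534-103828096 (Hbb-bs, ENSMUSG00000052305, - strand) and chr7:103812524-103813996 (Hbb-bt, ENSMUSG00000073940, -), as whole-gene spans of the deposited gene table. For each gene the stretch around the TATA-like motif ATATAA is printed, and its part in the levels described below was not tested. The 300-base promoter windows come from RefSeq on GRCm38.p6, and the motif stands in capitals.
Hba-a1: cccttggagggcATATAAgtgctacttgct
Hba-a2: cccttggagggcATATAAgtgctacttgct
Hbb-bs: ccagggcagagcATATAAggtgaggtagga
Hbb-bt: ccagcattgggtATATAAagctgagcaggg

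Each of the 4 windows held ATATAA once, at -31 to -28 relative to the RefSeq start; on either strand, 9.82% of 32851 promoter windows of that length hold it. The windows of Hba-a1 and Hba-a2 were identical at 297 of 297 bases once shifted by 3 bases, and those of Hbb-bs and Hbb-bt matched at 56.2% of 299 bases. CCAAT was present in all 4 windows and in 37.41% of all windows, and CACCC in all 4 and in 57.52% of all windows. AGATAA, a form of the GATA motif, was found in the Hbb-bs window only, against 11.18% of all windows. These matches describe letters in the reference and not sites in use.

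The deposited counts themselves bear the mark of shared reads. In 47 of 47 libraries the alpha sum and the beta sum were whole numbers to within 1e-06, while the counts of Hba-a1, Hba-a2, Hbb-bs and Hbb-bt were fractional in every library (0 of 47 whole). The fractions of the copies of a pair thus added up to whole reads. A sum is therefore a count of reads, and the count of a single copy is an estimate.

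Summed over copies, globin transcripts did not pass the test between strains on either diet. The 4 genes made up between 0.0258% and 0.133% of the counts of a library. On 10% fat the globin sum ranged from 279 to 1224 CPM in C57BL/6J (median 488, n = 8), from 262 to 879 in CAST/EiJ (median 590, n = 7) and from 273 to 927 in NZO/HlLtJ (median 512, n = 8). On 44% fat it ranged from 317 to 647 CPM in C57BL/6J (median 485), from 343 to 580 in CAST/EiJ (median 480) and from 247 to 572 in NZO/HlLtJ (median 355), with n = 8 each. The 6 ranges overlapped throughout. In order of their means the groups were C57BL/6J at 549 ± 297 CPM, CAST/EiJ at 540 ± 214 and NZO/HlLtJ at 535 ± 199 on 10% fat, then C57BL/6J at 484 ± 114, CAST/EiJ at 471 ± 99.2 and NZO/HlLtJ at 379 ± 100.2 on 44% fat (SD). No neighbours in that order differed by more than these SDs.

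**Figure D1:**
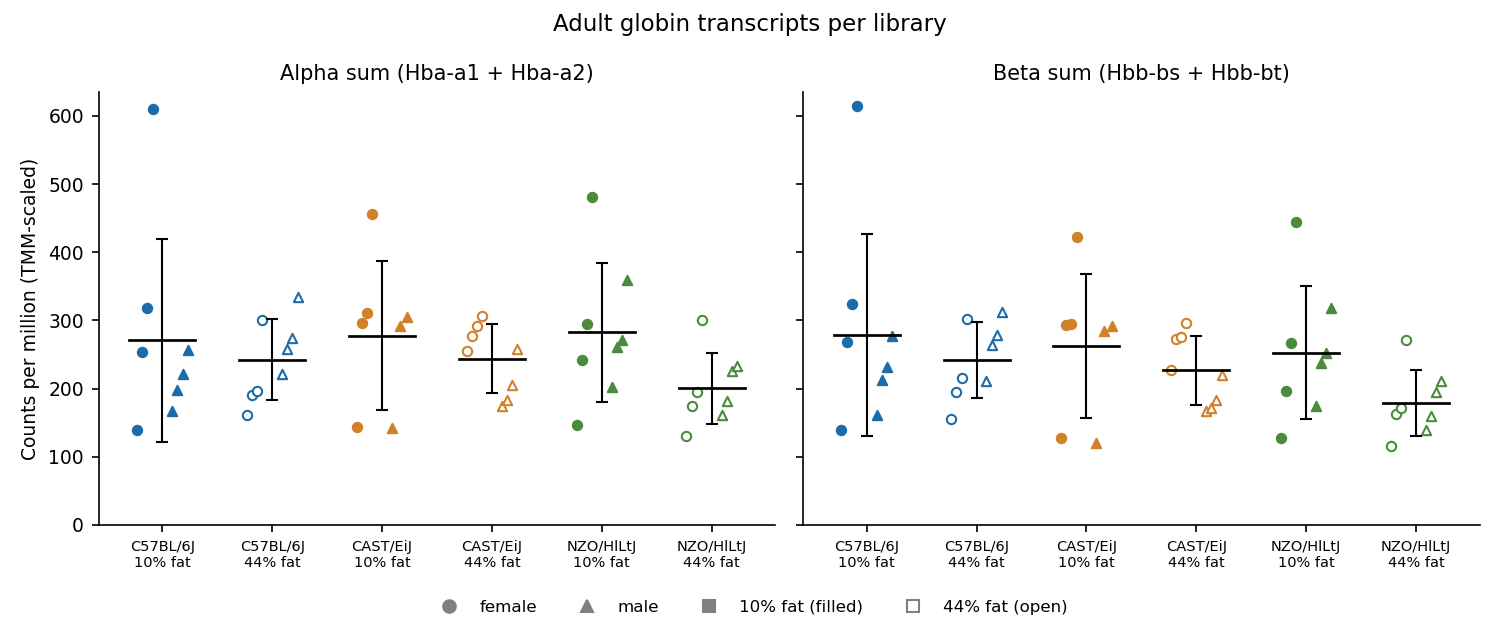
Alpha sum (left) and beta sum (right) in each library, in CPM on a linear axis from 0, by strain and diet; circles are females, triangles males, filled symbols 10% fat and open symbols 44% fat, with the mean (bar) and SD (whisker). The groups overlap in both panels, and 1 C57BL/6J female on 10% fat is highest in each, at 611 CPM (alpha) and 614 CPM (beta).

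The alpha sum was 271 ± 148 CPM in C57BL/6J, 278 ± 109 in CAST/EiJ and 282 ± 102 in NZO/HlLtJ on 10% fat, and 242 ± 59.5, 244 ± 50.3 and 200.5 ± 52.2 on 44% fat (SD). Between NZO/HlLtJ and C57BL/6J the log2 difference was 0.25 ± 0.18 (SE) on 10% fat, with a 95% interval from -0.12 to 0.62 and an edgeR adjusted p of 0.345, and -0.09 ± 0.18 on 44% fat, with an interval from -0.46 to 0.27. The beta sum was 279 ± 148, 262 ± 106 and 252 ± 97.6 CPM on 10% fat and 242 ± 55.5, 227 ± 50.5 and 179 ± 48.2 on 44% fat, in the same order of strains. Its difference between NZO/HlLtJ and C57BL/6J was 0.04 ± 0.19 (interval -0.34 to 0.43) on 10% fat and -0.25 ± 0.19 (-0.64 to 0.14) on 44% fat. Over all 3 sums and 6 strain comparisons the differences lay between -0.25 and 0.25, the intervals between -0.64 and 0.62, and the smallest edgeR adjusted p was 0.319. An interval of this width does not show that the strains have equal globin levels.

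The 3 stretches of consecutive sample numbers in the titles, called runs here, differed in globin level, and the labels do not say whether they are processing batches. The globin sum had its lowest mean in the first run in each strain. Its means over runs 1, 2 and 3 were 339, 659 and 492 CPM in C57BL/6J, 362, 557 and 551 in CAST/EiJ and 369, 563 and 528 in NZO/HlLtJ. NZO/HlLtJ had 8 of 16 libraries in the first run, C57BL/6J 4 of 16 and CAST/EiJ 4 of 15, and the model therefore holds a term for the run. Without that term the beta sum differences of NZO/HlLtJ on 10% fat changed sign, to -0.11 against C57BL/6J and -0.03 against CAST/EiJ, and neither was called in either fit.

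Hba-a1 was the member that set a strain apart. In C57BL/6J and CAST/EiJ it received between 3.95 and 80.1 counts per library, and in NZO/HlLtJ between 1343 and 8753. In the reference genome Hba-a1 and Hba-a2 encode the same alpha chain, and the alleles of CAST/EiJ and NZO/HlLtJ were not compared. These counts give how alpha reads were divided between 2 gene copies, and the reason for the division was not tested. In C57BL/6J on 10% fat, Hba-a1 stood at 0.364, 0.771, 0.962 and 0.659 CPM in the 4 females and at 0.373, 0.544, 0.659 and 0.130 CPM in the 4 males. On 44% fat its levels in C57BL/6J were 0.516, 0.846, 0.224 and 0.291 CPM in females and 0.404, 1.31, 0.282 and 0.434 CPM in males. All 16 libraries of C57BL/6J lay under 2 CPM on both diets.

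CAST/EiJ was also low. Its females had 0.881, 1.61, 0.738 and 1.14 CPM of Hba-a1 on 10% fat and 1.2, 1.05, 1.51 and 1.28 CPM on 44% fat. The 3 males on 10% fat had 0.25, 1.04 and 0.421 CPM, and the 4 males on 44% fat 0.808, 0.849, 0.775 and 0.398 CPM. These values overlapped those of C57BL/6J on both diets.

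Every NZO/HlLtJ library was far above both other strains. Hba-a1 stood at 51.1, 91.9, 115 and 176 CPM in females and 100.2, 70.2, 142 and 99.6 CPM in males on 10% fat. On 44% fat it stood at 68.0, 49.5, 62.8 and 114 CPM in females and 84.2, 57.7, 69.2 and 80.8 CPM in males. The lowest NZO/HlLtJ library, at 49.5 CPM, was above the highest of the other strains, at 1.61 CPM, with no overlap.

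**Figure D2:**
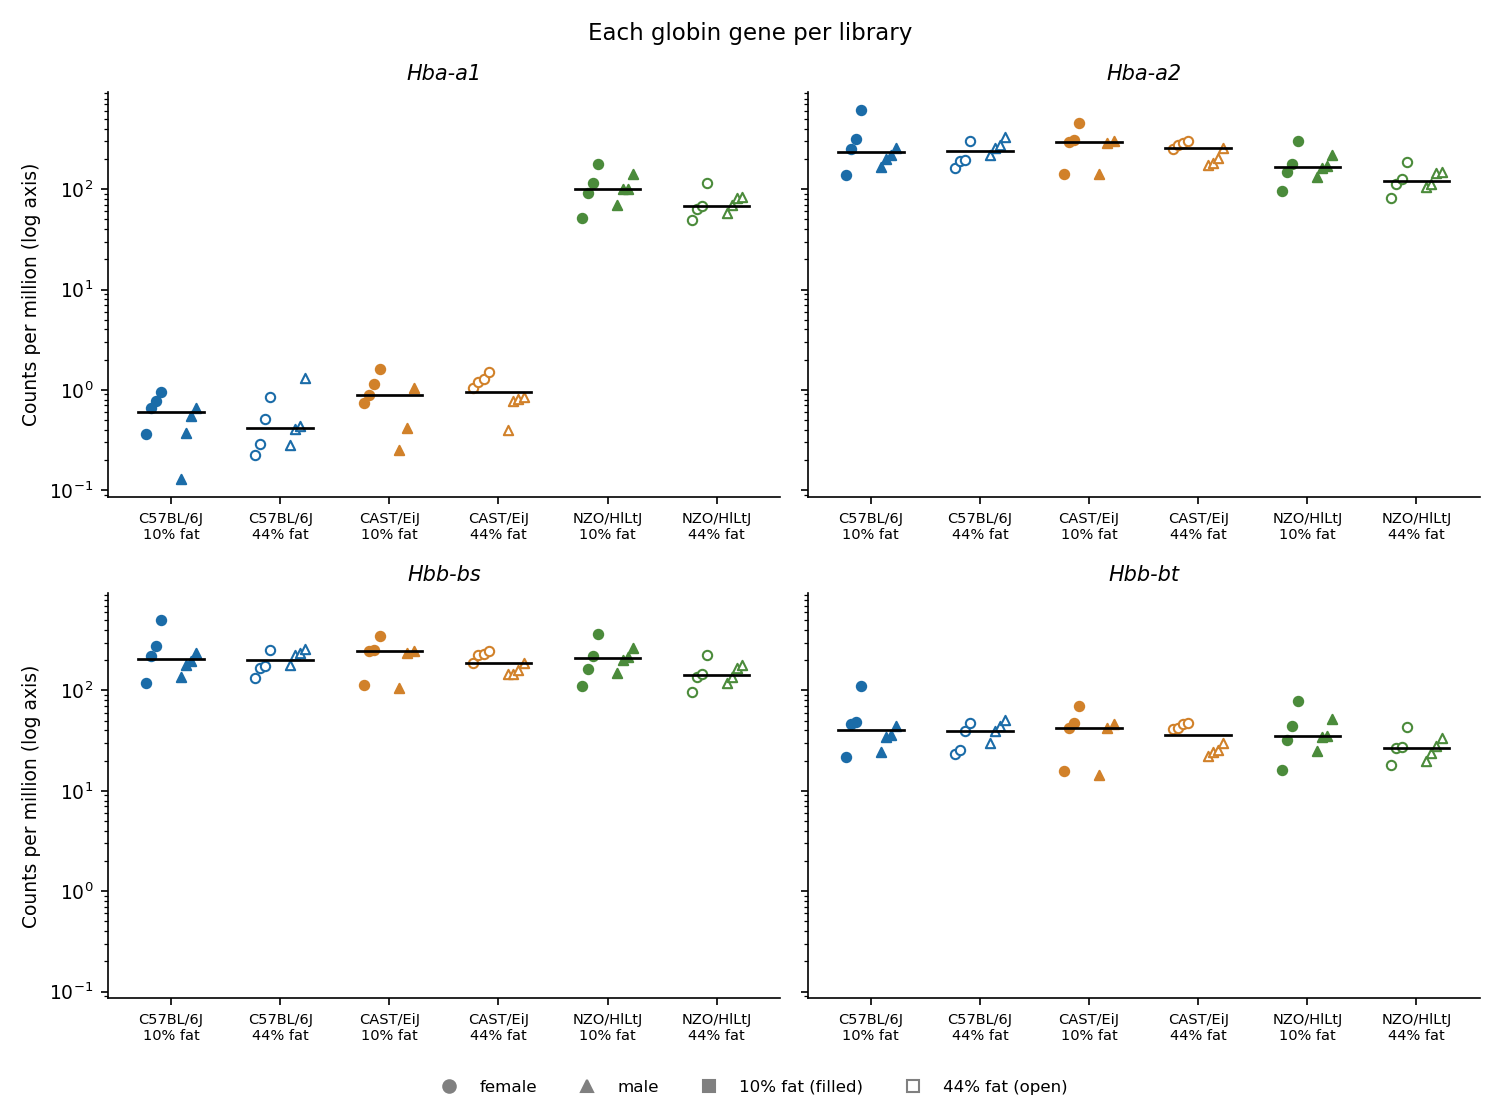
CPM of each globin gene in every library on a log axis shared by the 4 panels, by strain and diet; circles are females, triangles males, filled symbols 10% fat, open symbols 44% fat, and bars are medians. Hba-a1 lies between 0.130 and 1.61 CPM in C57BL/6J and CAST/EiJ and between 49.5 and 176 CPM in NZO/HlLtJ, while the other 3 genes overlap between strains.

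In the edgeR quasi-likelihood test, Hba-a1 was higher in NZO/HlLtJ than in C57BL/6J by a log2 fold of 7.67 ± 0.26 (SE; 204-fold; adjusted p = 6.02e-24) on 10% fat and 7.23 ± 0.25 (adjusted p = 2.53e-23) on 44% fat. Against CAST/EiJ it was higher by 7.13 ± 0.27 (140-fold; adjusted p = 4.59e-23) and 6.47 ± 0.24 (adjusted p = 2.38e-23). Among 17159 genes, the rise against C57BL/6J on 10% fat was the 10th largest log2 fold and had the 5th smallest p. Within runs 1, 2 and 3 the log2 ratio of mean CPM between NZO/HlLtJ and C57BL/6J was 7.73, 7.58 and 7.97 on 10% fat, and it spread more widely on 44% fat, at 7.14, 6.57 and 8.05. Between CAST/EiJ and C57BL/6J, Hba-a1 differed by 0.54 ± 0.35 (interval -0.16 to 1.24; adjusted p = 0.203) on 10% fat and by 0.75 ± 0.31 (0.12 to 1.38; adjusted p = 0.0409) on 44% fat. That last call, at under 1 CPM on average in both strains, was lost without the run term (adjusted p = 0.0670), with limma voom (0.164), with the deposited log2 values (0.155) and on leaving out any 1 of 9 libraries (highest adjusted p 0.111).

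Hba-a2, the other alpha copy, moved the opposite way in NZO/HlLtJ, by far less on the log2 scale but by a similar amount in CPM. Over both diets Hba-a1 averaged 0.548 CPM in C57BL/6J and 89.5 CPM in NZO/HlLtJ, and Hba-a2 256 and 152 CPM. On 10% fat Hba-a2 ranged from 140 to 610 CPM in C57BL/6J (median 237), from 141 to 455 in CAST/EiJ (median 296) and from 95.1 to 305 in NZO/HlLtJ (median 167). On 44% fat the ranges were 161 to 333 CPM (median 240), 174 to 306 (median 255) and 81.5 to 186 (median 120). The NZO/HlLtJ libraries were the lowest by median on each diet, and their ranges overlapped those of the other strains. Against C57BL/6J the log2 difference was -0.43 ± 0.18 on 10% fat (edgeR adjusted p = 0.0815), which did not pass, and -0.75 ± 0.18 on 44% fat (adjusted p = 0.00148), which did. Against CAST/EiJ, Hba-a2 was lower on both diets, at -0.49 ± 0.19 on 10% fat (adjusted p = 0.0277) and -0.75 ± 0.18 on 44% fat (adjusted p = 0.000638). The call at 10% fat against CAST/EiJ was lost on leaving out any 1 of 5 libraries (CAST/EiJ female 2 and male 3, NZO/HlLtJ females 1 and 3 and male 4; highest adjusted p 0.0855). Leaving out C57BL/6J female 1 or NZO/HlLtJ female 4 brought the difference from C57BL/6J on 10% fat past the threshold, with adjusted p of 0.0286 and 0.0252. Libraries are numbered here within each group by the order of the sample numbers in their titles, since the labels give no replicate numbers.

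The beta genes were not called in any strain comparison. Hbb-bs ranged from 118 to 502 CPM in C57BL/6J, from 106 to 353 in CAST/EiJ and from 111 to 366 in NZO/HlLtJ on 10% fat, with means of 233, 223 and 213. Hbb-bt ranged from 21.6 to 112 CPM, from 14.5 to 70.0 and from 16.1 to 79.2, with means of 45.9, 39.8 and 39.8. On 44% fat the means were 204, 192 and 151 CPM for Hbb-bs and 37.5, 34.9 and 27.5 CPM for Hbb-bt. The 12 log2 differences of these genes between strains lay between -0.26 and 0.21, their intervals between -0.69 and 0.68, and the smallest edgeR adjusted p was 0.295.

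Counted over the 4 members, edgeR called 0 of 4 between CAST/EiJ and C57BL/6J, 1 between NZO/HlLtJ and C57BL/6J and 2 between NZO/HlLtJ and CAST/EiJ on 10% fat. Of all genes tested, 49.7%, 25.8% and 50% were called in these comparisons. On 44% fat the counts were 1, 2 and 2 of 4, beside 51.5%, 35.2% and 55.4% of all genes. Strain differences were thus common across the transcriptome, and a count of at most 2 of 4 members is too small to be read against that background. For CAST/EiJ against C57BL/6J on 10% fat, 0 members had an unadjusted edgeR p under 0.05, beside 9388 of all 17159 genes. DESeq2 and limma voom also called 0 members.

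**Figure D3:**
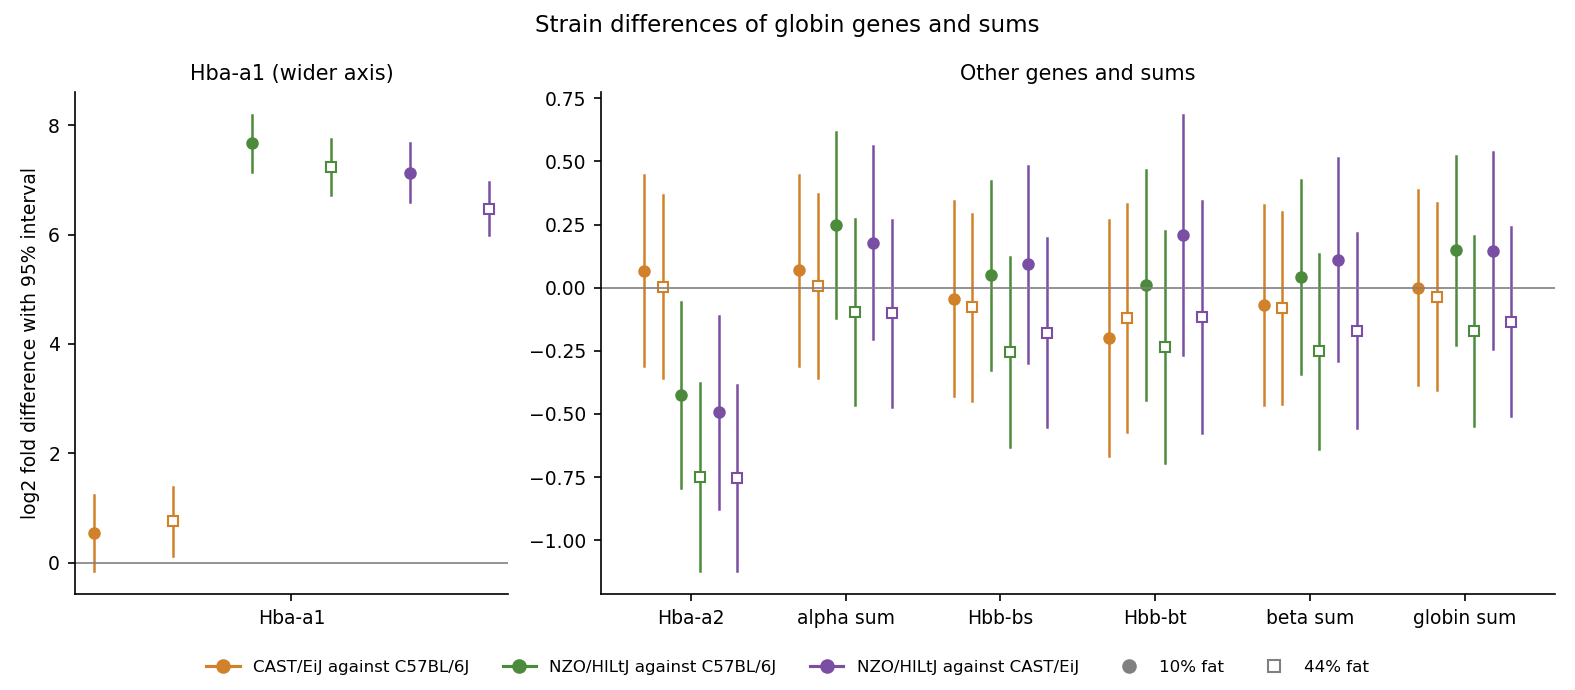
Log2 fold differences between strains (points) with 95% intervals (lines) for Hba-a1 on its own wider axis (left) and for the other genes and sums (right); colours give the pair of strains, filled circles 10% fat and open squares 44% fat. Hba-a1 lies between 6.47 and 7.67 in the 4 comparisons with NZO/HlLtJ, Hba-a2 lies below 0 in the same 4, and the intervals of every sum and beta gene cross 0.

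The division of reads within each pair was described by shares, which need no scaling between libraries. Shares are of counts, not divided by transcript length, so they do not rank the copies by number of molecules. On 10% fat Hba-a1 took 0.221% ± 0.084 of the alpha sum in C57BL/6J (SD, n = 8; range 0.0503% to 0.330%), 0.320% ± 0.157 in CAST/EiJ (n = 7; 0.135% to 0.610%) and 37.2% ± 1.80 in NZO/HlLtJ (n = 8; 34.6% to 39.4%). On 44% fat the shares were 0.214% ± 0.102, 0.399% ± 0.0982 and 36.5% ± 1.28 (n = 8 each). The share in NZO/HlLtJ did not overlap that of either other strain, and its SD across libraries was under 2 percentage points although the alpha sum itself varied from 131 to 482 CPM there.

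By an exact two-sided permutation test, the share of Hba-a1 in NZO/HlLtJ differed from that in C57BL/6J by 37.0 percentage points on 10% fat (adjusted p = 0.000466 over 9 tests). The raw p of 0.000155 is the smallest this design allows. Against CAST/EiJ the difference was 36.9 points, with the same p. On 44% fat the differences were 36.3 and 36.1 points, again with the smallest p allowed. Between CAST/EiJ and C57BL/6J the share differed by 0.0986 points on 10% fat (exact permutation p = 0.141, adjusted 0.181) and by 0.186 points on 44% fat (p = 0.00404, adjusted 0.00909).

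Hbb-bs took nearly the same share of the beta sum in the 3 strains. On 10% fat it was 83.9% ± 1.32 in C57BL/6J, 85.4% ± 1.87 in CAST/EiJ and 84.7% ± 1.69 in NZO/HlLtJ (SD), and on 44% fat 84.6% ± 1.53, 84.8% ± 1.80 and 84.7% ± 0.894. The largest difference was 1.53 points, between CAST/EiJ and C57BL/6J on 10% fat (exact permutation p = 0.0890, adjusted 0.134), and the ranges overlapped in every pair of strains. The share was lower in the library with the highest beta sum of each strain than in the one with the lowest: 81.8% at 614 CPM against 84.5% at 139 CPM in C57BL/6J, 83.4% at 423 against 87.98% at 120.4 in CAST/EiJ, and 82.2% at 445 against 84.5% at 116 in NZO/HlLtJ. These values cover 2 libraries per strain, and no relation of share to sum was tested. Some libraries between them had higher shares, among them a C57BL/6J female on 44% fat (86.9% at 195 CPM). An NZO/HlLtJ male on 10% fat had 86.3% at 252 CPM. The contrast with the alpha pair is a description, and no test compared the 2 pairs.

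The balance of alpha against beta reads differed by a few points between strains. Alpha made up 49.3% ± 0.987 of the globin sum in C57BL/6J, 51.7% ± 1.39 in CAST/EiJ and 53.0% ± 1.09 in NZO/HlLtJ on 10% fat (SD). The ranges ran from 48.0% to 50.8%, from 50.03% to 54.0% and from 51.8% to 55.1%. NZO/HlLtJ lay wholly above C57BL/6J, by 3.74 points (exact permutation p = 0.000155, adjusted 0.000466), and CAST/EiJ lay above C57BL/6J by 2.45 points (adjusted 0.00455) with overlapping ranges. On 44% fat the shares were 50.01% ± 1.51, 51.9% ± 1.71 and 52.9% ± 0.641. There NZO/HlLtJ again did not overlap C57BL/6J, at 2.91 points (adjusted exact permutation p = 0.000466), while the 1.88 points between CAST/EiJ and C57BL/6J gave an adjusted p of 0.0632. NZO/HlLtJ and CAST/EiJ differed by 1.295 points on 10% fat (exact permutation p = 0.0651, adjusted 0.117) and 1.03 points on 44% fat (p = 0.125, adjusted 0.187). These tests leave the run out. Over both diets, the mean alpha share in runs 1, 2 and 3 was 50.8%, 49.9% and 48.6% in C57BL/6J, 51.6%, 51.98% and 51.8% in CAST/EiJ and 53.4%, 52.8% and 52.3% in NZO/HlLtJ, and the NZO/HlLtJ libraries lay above all those of C57BL/6J within each run. On 10% fat, leaving out CAST/EiJ male 1 raised the difference between NZO/HlLtJ and CAST/EiJ to 1.68 points, with an adjusted exact permutation p of 0.0222.

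**Figure D4:**
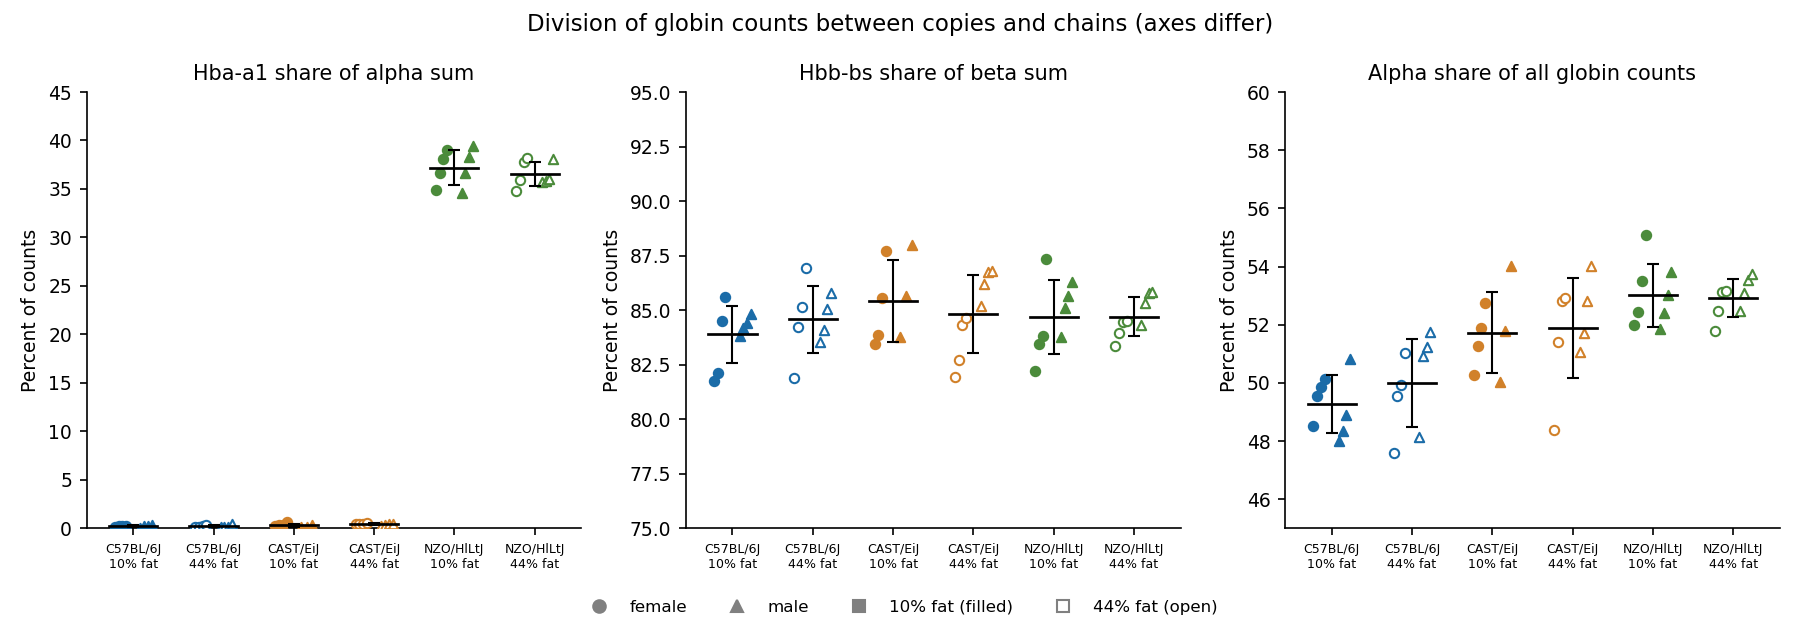
Share of Hba-a1 in the alpha sum (left), of Hbb-bs in the beta sum (middle) and of alpha in all globin counts (right) in each library, in percent of counts; the 3 vertical axes differ and only the left one starts at 0. Symbols are as in the plot of sums, with mean and SD; NZO/HlLtJ stands at 34.6% to 39.4% in the left panel, against under 1% in the other strains.

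Diet left the members uncalled in all 3 strains. In C57BL/6J the globin sum differed between 44% and 10% fat by a log2 fold of -0.12 ± 0.18 (interval -0.49 to 0.25), and in CAST/EiJ by -0.16 ± 0.19 (-0.55 to 0.23), both with an edgeR adjusted p of 1. In NZO/HlLtJ it differed by -0.44 ± 0.18 (-0.81 to -0.07; adjusted p = 0.291). The single genes of NZO/HlLtJ differed by -0.48 ± 0.17 (Hba-a1), -0.42 ± 0.18 (Hba-a2), -0.44 ± 0.18 (Hbb-bs) and -0.46 ± 0.22 (Hbb-bt), with adjusted p between 0.211 and 0.380. All 4 had an unadjusted p under 0.05 in edgeR and limma voom, and 2 of 4 in DESeq2, and no tool called them after adjustment. At that threshold edgeR had 2224 of all 17159 genes in this comparison.

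For NZO/HlLtJ the first run is the only one in which a sex was present on both diets, and there the log2 ratio of mean globin CPM was -0.22. In CAST/EiJ the same ratio was 0.73, -0.62 and -0.32 over the 3 runs, and in C57BL/6J 0.29, -0.20 and -0.08, so the direction was not the same in every run. Among all genes, 0% were called between diets in C57BL/6J, 0.134% in CAST/EiJ and 0.408% in NZO/HlLtJ, beside 0 of 4 members in each. At an unadjusted p under 0.05, 0 of 4 members stood out in C57BL/6J and CAST/EiJ in edgeR, beside 681 and 825 of all 17159 genes. DESeq2 and limma voom called 0 members in each strain.

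Sex differences were not called either. In CAST/EiJ, females had a globin sum of 569 ± 167 CPM (SD, n = 8) and males 428 ± 126 (n = 7). The log2 difference of female against male was 0.39 ± 0.19, with a 95% interval from 0.01 to 0.78 and an edgeR adjusted p of 0.302. Hba-a1 stood at 1.18 ± 0.295 CPM in CAST/EiJ females and 0.648 ± 0.291 in males, a difference of 0.90 ± 0.31 (0.27 to 1.52; adjusted p = 0.0969). That gene was called by DESeq2 (adjusted p = 0.0214) and by edgeR fitted to CAST/EiJ alone (0.0483), and its low counts, all at 80.1 or under in this strain, limit the precision. Females and males stood at 548 ± 302 and 485 ± 98.4 CPM in C57BL/6J and at 466 ± 222 and 448 ± 119 CPM in NZO/HlLtJ.

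Beside 0 of 4 members called, 15.2%, 4.27% and 11.8% of all genes differed between the sexes in C57BL/6J, CAST/EiJ and NZO/HlLtJ. At an unadjusted p under 0.05, 0, 3 and 0 members stood out in edgeR, beside 4687, 2715 and 4295 of all 17159 genes. DESeq2 called 0, 1 and 0 and limma voom 0 in each strain. Over all 4 genes and 3 sums, the differences between females and males lay between -0.04 and 0.90, with intervals between -0.67 and 1.52.

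No diet or sex effect on a member was shown to differ between strains. For the diet effect, CAST/EiJ minus C57BL/6J, NZO/HlLtJ minus C57BL/6J and NZO/HlLtJ minus CAST/EiJ had 0 of 4 members called, beside 0.0175%, 0% and 0.0117% of all genes. The differences of the diet effect lay between -0.66 and 0.21 on the log2 scale, with the smallest edgeR adjusted p at 0.772. For the sex effect the same 3 contrasts called 0 of 4 members beside 2.48%, 0.472% and 2.41% of all genes, with differences between -0.91 and 0.87 and a smallest adjusted p of 0.194. At an unadjusted p under 0.05 the edgeR counts were 0, 0 and 0 members for diet, beside 795, 1139 and 1186 of all 17159 genes. For sex they were 0, 0 and 1 members, beside 2114, 1645 and 2403 genes. Neither DESeq2 nor limma voom called a member in these 6 contrasts.

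Within each strain the alpha and beta genes rose and fell together from library to library. On log2 CPM, Pearson's r between the alpha and beta sums was 0.989 in C57BL/6J (n = 16), 0.987 in CAST/EiJ (n = 15) and 0.996 in NZO/HlLtJ (n = 16), and Spearman's rho was 0.959, 0.868 and 0.994. The permutation p of each r was 1e-05, the smallest that 100000 resamples can give, and stayed there after adjustment over 6 relations. The p of rho was at most 8e-05. Without the 2 libraries farthest from the median, r was 0.972, 0.9753 and 0.992, and after removing group means 0.990, 0.983 and 0.996. Within runs of 4 to 8 libraries r lay between 0.949 and 0.999.

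**Figure D5:**
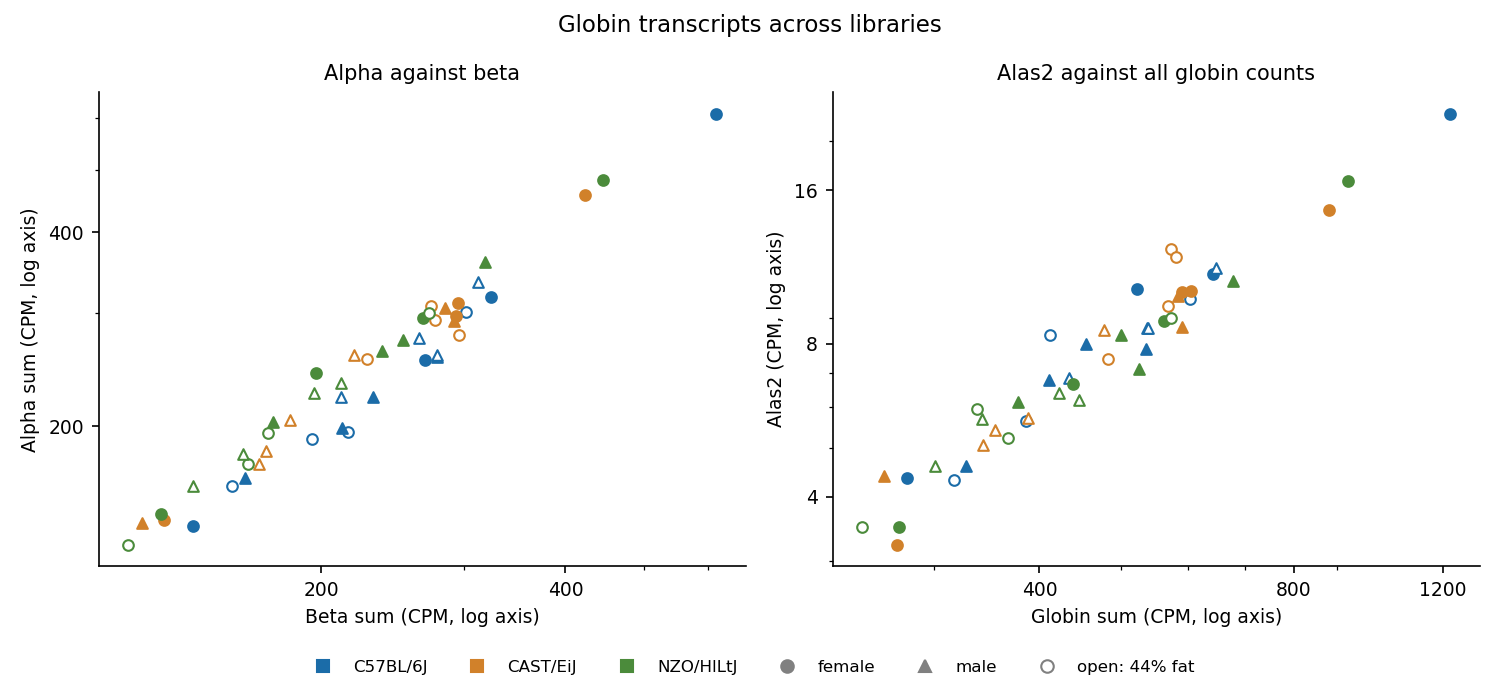
Alpha sum against beta sum (left) and Alas2 against the globin sum (right), in CPM on log axes, 1 point per library; colours give the strain, circles females, triangles males, open symbols 44% fat. The points of the 3 strains lie along a common band in both panels, with globin sums from 247 to 1224 CPM and Alas2 from 3.22 to 22.7 CPM.

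The gene whose level was most like the globin sum was Alas2, the red cell form of the first enzyme of heme synthesis. Across the 47 libraries its Pearson r with the globin sum was 0.97, the highest of 12674 genes with a mean of at least 1 CPM. Among the genes next in order were Ube2l6 (an enzyme that attaches the ubiquitin-like protein ISG15) at 0.60, Fam46c (a poly(A) polymerase, now Tent5c) at 0.57 and Mkrn1 (a ubiquitin ligase) at 0.53. After removing the means of the 12 groups, Alas2 was again first at 0.97, and the leading 5 included Fam46c at 0.67, Ube2l6 at 0.65 and Zfp592, a zinc finger gene, at 0.64. The libraries share depth and scaling, and these likenesses carry no test.

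Within strains, r between the globin sum and Alas2 was 0.972 in C57BL/6J, 0.959 in CAST/EiJ and 0.977 in NZO/HlLtJ, with Spearman's rho of 0.941, 0.886 and 0.976. The permutation p of r was 1e-05 in each, again the smallest possible, and that of rho at most 4e-05 (adjusted 4.8e-05). Without the 2 farthest libraries r was 0.938, 0.944 and 0.954. Within runs 1, 2 and 3 it was 0.946, 0.993 and 0.553 in C57BL/6J, 0.962, 0.987 and 0.8996 in CAST/EiJ and 0.971, 0.993 and 0.937 in NZO/HlLtJ. The lowest of these, in run 3 of C57BL/6J, rested on 6 libraries whose globin sums ran only from 411 to 538 CPM. The C57BL/6J female with the highest globin sum, 1224 CPM, also had the highest Alas2, 22.7 CPM.

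Other genes of red cells were not all alike. The mean log2 CPM of the tested markers of red cells and their precursors, Alas2 among them, was 1.27 in the C57BL/6J library with the lowest globin sum and 2.00 in the one with the highest. The same 2 values were 1.13 and 1.75 in CAST/EiJ and 1.198 and 1.71 in NZO/HlLtJ, higher in the library with more globin. They cover 2 libraries per strain. The highest mean in CAST/EiJ was 1.90, at a globin sum of 580 CPM, and the lowest in NZO/HlLtJ was 1.11, at 273 CPM. Among markers of red cells and their precursors, 25 of 30 listed genes were deposited and 22 tested. On 10% fat 5 were higher and 4 lower in CAST/EiJ than in C57BL/6J, 2 higher and 2 lower in NZO/HlLtJ than in C57BL/6J, and 3 higher and 8 lower in NZO/HlLtJ than in CAST/EiJ. Their median log2 differences were 0.0078, 0.0045 and -0.023, beside -0.013, -0.0037 and 0.0004 over all genes. Of all genes tested, 49.7%, 25.8% and 50% were called in these comparisons. Car2, a carbonic anhydrase, was higher in CAST/EiJ (14.6 CPM) than in C57BL/6J (5.60 CPM), by 1.41 ± 0.11 (edgeR adjusted p = 9.18e-14). Car1, the carbonic anhydrase of red cells, was lower in NZO/HlLtJ (0.0655 CPM) than in C57BL/6J (0.309 CPM), by -2.42 ± 0.48 (adjusted p = 0.000153). Its level was under 1 CPM in both strains, so that fold rests on few counts. Bnip3l, a receptor for the removal of mitochondria, was higher in CAST/EiJ than in C57BL/6J by 0.33 ± 0.05 (adjusted p = 1.18e-06), and Slc25a37, the mitochondrial iron importer mitoferrin, was lower by -0.18 ± 0.06 (adjusted p = 0.00873). Several of these genes are expressed outside red cells. Across the 47 libraries, r with the globin sum was 0.11 for Car2, 0.04 for Bnip3l and 0.14 for Slc25a37. Other markers had r of either sign, among them Mkrn1 at 0.53, Tspan33 at 0.14, Gypc at -0.16, Aqp1 at -0.21, Fech at -0.21 and Xk at -0.36. Why r differed between markers was not tested.

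The 9 genes of heme synthesis were all tested. In CAST/EiJ 4 were higher and 3 lower than in C57BL/6J. In NZO/HlLtJ 2 were higher and 1 lower than in C57BL/6J, and 3 higher and 2 lower than in CAST/EiJ. Their medians were 0.0040, 0.10 and 0.10. Of all genes on 10% fat, 49.7%, 25.8% and 50% were called in these comparisons. Alad, which makes porphobilinogen, stood at 8.95 CPM in C57BL/6J, 12.8 in CAST/EiJ and 22.01 in NZO/HlLtJ, and was higher in NZO/HlLtJ than in C57BL/6J by 1.304 ± 0.07 (edgeR adjusted p = 5.04e-18). Uros, which closes the ring, was lower in CAST/EiJ by -1.002 ± 0.08 (adjusted p = 1.94e-13), and Urod, the enzyme after it, was higher by 0.27 ± 0.05 (adjusted p = 4.80e-06).

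Of genes of heme and haemoglobin clearance, 10 were listed and 9 tested. In the same 3 comparisons 3 were higher and 0 lower, 0 higher and 1 lower, and 0 higher and 3 lower. Their medians were 0.20, -0.040 and -0.12, and the shares of all genes called were again 49.7%, 25.8% and 50%. The 3 called in CAST/EiJ against C57BL/6J were Blvrb, the biliverdin reductase of red cells, at 1.23 ± 0.14 (edgeR adjusted p = 1.08e-09), Blvra, its second form, at 0.20 ± 0.07 (0.0115), and Hmox1, the inducible heme oxygenase, at 0.34 ± 0.13 (0.0325). Cd163, the macrophage receptor for haemoglobin bound to haptoglobin, was lower in NZO/HlLtJ than in C57BL/6J by -0.56 ± 0.17 (adjusted p = 0.0137).

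Of 13 other globin genes listed, 3 were deposited and 2 tested. Mb, the myoglobin of muscle fibres, stood at 1169 CPM in C57BL/6J, 1721 in CAST/EiJ and 1431 in NZO/HlLtJ on 10% fat, and was higher in CAST/EiJ than in C57BL/6J by 0.57 ± 0.14 (edgeR adjusted p = 0.000795). Between NZO/HlLtJ and C57BL/6J it differed by 0.30 ± 0.14 (adjusted p = 0.102). Cygb, the globin of fibroblasts, stood at 13.24, 13.57 and 12.95 CPM and was not called, with differences of -0.01 ± 0.09 and -0.02 ± 0.08 from C57BL/6J.

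Markers of other cells of the blood and tissue varied between strains as well, and their part in the globin values was not tested. In CAST/EiJ against C57BL/6J on 10% fat, 5 of 9 neutrophil markers were higher and 1 lower, 1 of 4 platelet markers was higher and 1 lower, and 7 of 10 endothelial markers were lower, while 0 of 12 lymphocyte markers were called. In NZO/HlLtJ against C57BL/6J the counts were 0 higher and 1 lower, 1 and 0, 2 and 2, and again 0 of 12. Of all genes, 49.7% and 25.8% were called in these 2 comparisons on 10% fat. Though uncalled, the 12 lymphocyte markers had a median log2 difference of -2.86 in NZO/HlLtJ against C57BL/6J on 10% fat. Against CAST/EiJ on that diet the median was -2.83, with 2 of 12 called lower, beside 50% of all genes called. On 44% fat NZO/HlLtJ had all 12 of 12 lymphocyte markers lower than C57BL/6J (median log2 difference -6.90) and lower than CAST/EiJ (-6.03). Against C57BL/6J it also had 0 neutrophil markers higher and 3 lower, and 3 endothelial markers higher and 5 lower. On 44% fat, 35.2% of all genes were called in NZO/HlLtJ against C57BL/6J and 55.4% against CAST/EiJ. Pf4, a chemokine of platelets, stood at 4.12, 3.68 and 3.45 CPM in C57BL/6J, CAST/EiJ and NZO/HlLtJ on 10% fat, with no call.

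Lymphocyte transcripts split the libraries. The mean log2 CPM of 12 markers was at -3.00 or below in 24 libraries and at 1.06 or above in 23. The high libraries numbered 10 of 16 for C57BL/6J, 12 of 15 for CAST/EiJ and 1 of 16 for NZO/HlLtJ. Globin sums of the high and low libraries overlapped, from 317 to 1224 and from 279 to 647 CPM in C57BL/6J and from 262 to 879 and from 271 to 568 CPM in CAST/EiJ; the 1 high library of NZO/HlLtJ, at 927 CPM, was above all 15 low ones, which reached 677 CPM. The Hba-a1 share of that library was 36.6%, within the 34.6% to 39.4% of the others. With the lymphocyte score in the model, the call of lower Hba-a2 in NZO/HlLtJ than in CAST/EiJ on 10% fat was lost, at -0.27 (edgeR adjusted p = 0.232).

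Of the genes within 100000 bases of a member, 6 near the alpha genes and 0 near the beta genes were tested. Nprl3, whose introns hold enhancers of the alpha genes (chr11:32225628-32267707), stood at 11.8 CPM in C57BL/6J, 15.3 in CAST/EiJ and 11.6 in NZO/HlLtJ on 10% fat. It was higher in CAST/EiJ than in C57BL/6J by 0.38 ± 0.06 (edgeR adjusted p = 3.64e-06) and differed by -0.01 ± 0.06 between NZO/HlLtJ and C57BL/6J. Mpg, a DNA glycosylase gene that overlaps Nprl3 (chr11:32226505-32232700), was higher in CAST/EiJ by 0.35 ± 0.11 (adjusted p = 0.00719), and since the use of strand in counting is not stated, reads of the overlap cannot be told apart. Against CAST/EiJ on 10% fat, 4 of the 6 were lower in NZO/HlLtJ, where 50% of all genes were called in either direction. They were Nprl3 by -0.39 ± 0.06 (edgeR adjusted p = 2.53e-06), Snrnp25 by -0.32 ± 0.11 (0.0151), Mpg by -0.29 ± 0.11 (0.0266) and Sh3pxd2b by -0.34 ± 0.14 (0.0394). None of the 6 was called between NZO/HlLtJ and C57BL/6J on 10% fat, beside 25.8% of all genes. The values of 4 of the 6 were Snrnp25 (-0.20 ± 0.11), Rhbdf1 (0.01 ± 0.07), Sh3pxd2b (-0.30 ± 0.13) and Il9r (0.05 ± 1.53).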

How the data were processed

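For 20796 genes the authors deposited unscaled expected counts, and beside them log2 values after variance stabilization; gene positions came in a separate table. The submitters' processing notes name GRCm38 and DESeq2; the sources used here name no aligner or quantifier and do not say whether each strain had its own genome, and how these divided reads between copies could change the count of each copy. Counts were rounded and fitted with edgeR 4.0.16 in R 4.3.3 (filterByExpr by the 12 groups, TMM factors, quasi-likelihood F tests, 12 group terms plus the run, 33 residual degrees of freedom). The 3 sums were added as rows of the same fit, and Benjamini-Hochberg adjustment ran over 17162 rows with a threshold of 0.05. CPM are TMM-scaled. An SE is the coefficient divided by the square root of F, and intervals are 95%. Shares used the deposited counts and exact permutation tests. DESeq2 1.42.0, limma 3.58.1 (voom, and the deposited log2 values), other scalings, filters and samples were alternatives. On simulated counts for NZO/HlLtJ against C57BL/6J on 10% fat (16335 genes), 95.92% of 2-fold and 100% of 4-fold changes were recovered. Every simulated gene had the same dispersion (spread between libraries) and no difference between runs, so these rates do not describe the globin genes. Named genes were all members, the 5 genes most like the globin sum by each measure, up to 4 of each list with the smallest p in a strain comparison on 10% fat, and every tested gene within 100000 bases of a member; of lists for other cell types, only those described are printed, and some genes that the rule names are not reported here. Members and lists were chosen with earlier results of these data known. Sequences are from GENCODE M21 and RefSeq; ERCC spike-ins were not used here.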

Additional observations from a re-analysis of the deposited data

Results flagged for a closer look

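Of 99 tests for a library apart from the rest of its group (9 measures, groups of 4 libraries), 4 stood out, and about 1 in 20 such groups would by chance. In C57BL/6J males on 44% fat, 1 library had 1.305 CPM of Hba-a1, against 0.2816 to 0.4335 CPM in the other 3. In CAST/EiJ males on 44% fat, 1 library had 0.3981 CPM of Hba-a1, against 0.7752 to 0.8487 CPM in the others. In C57BL/6J females on 10% fat, Hba-a1 took 0.1593% of the alpha sum in 1 library (95% Wilson interval 0.1144% to 0.2171%, counting error only), against 0.2462% to 0.2638%. That library is the one with the highest globin sum of all 47. In NZO/HlLtJ males on 44% fat, the share was 38.12% in 1 library (interval 37.01% to 39.24%), against 35.67% to 36.0%. All 4 concern Hba-a1 or its share, and the first 3 rest on at most 60.3 counts of that gene. No difference of a diet or sex effect between strains passed its test for any member.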

How the results depend on the processing

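Limits come first from how reads were divided between copies, which no setting here could redo, and from depth, since Hba-a1 had at most 80.1 counts per library outside NZO/HlLtJ. The 4 rises of Hba-a1 in NZO/HlLtJ were called in every fit run, and so was lower Hba-a2 in NZO/HlLtJ on 44% fat. On 44% fat, 0 of 4 members in place of 1 were called between CAST/EiJ and C57BL/6J with limma voom, the deposited log2 values or no run term, and 0 to 1 on leaving out 1 library. On 10% fat, NZO/HlLtJ against CAST/EiJ gave 1 call in place of 2 with the lymphocyte score, and 1 to 2 on leaving out 1 library, as did NZO/HlLtJ against C57BL/6J in place of 1. Between the sexes of CAST/EiJ, DESeq2 and the fit to that strain alone called 1 member in place of 0. Of the shares, the libraries on 44% fat moved 2 calls of CAST/EiJ against C57BL/6J, with Hba-a1 at 0.186 points (now past the threshold) and alpha at 1.88 points (no longer past it). Alpha in NZO/HlLtJ against CAST/EiJ ran from 1.00 to 1.68 points on leaving out 1 library.

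Signs changed only where nothing was called. With the lymphocyte score on 44% fat, the alpha sum of NZO/HlLtJ went to 0.12 against C57BL/6J and to 0.11 against CAST/EiJ, and its beta sum against CAST/EiJ to 0.057. Without the run term on 10% fat, that beta sum went to -0.11 against C57BL/6J and -0.028 against CAST/EiJ. With limma voom, Hba-a2 in CAST/EiJ against C57BL/6J on 44% fat was -0.0026. Leaving out 1 library, CAST/EiJ against C57BL/6J ran from -0.025 to 0.26 (Hba-a2), -0.024 to 0.26 (alpha sum) and -0.16 to 0.12 (beta sum) on 10% fat, and from -0.084 to 0.066 (Hba-a2) and -0.082 to 0.068 (alpha sum) on 44% fat. The beta sum on 10% fat ran from -0.085 to 0.23 in NZO/HlLtJ against C57BL/6J and from -0.04 to 0.20 against CAST/EiJ. The alpha sum in NZO/HlLtJ against CAST/EiJ on 44% fat ran from -0.21 to 0.0028, and the diet difference of the globin sum in C57BL/6J from -0.22 to 0.069. The cause of these changes was not tested. With library sizes alone the median of all genes on 44% fat went from -0.028 to -0.11 in NZO/HlLtJ against C57BL/6J and from -0.025 to -0.11 against CAST/EiJ, and from 0.038 to 0.14 between the sexes of C57BL/6J. Within run 3, with no test, Hba-a1 in NZO/HlLtJ against C57BL/6J on 44% fat was 8.05 in place of 7.23. Interactions were not refitted with libraries left out. No paired analysis was possible because the labels give no replicate numbers.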
